A study of Homo sapiens with 45 samples.

Results

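The RNA of 4 neuropeptide ligand genes and 5 of their receptor genes was followed through RNA sequencing libraries of sarcoma cell lines: the ligands GRP, CCK, NPY and GAL, and the receptors GRPR (for GRP), CCKBR (for CCK), NPY1R and NPY5R (for NPY) and GALR2 (for GAL). The 9 genes were chosen by name, with earlier results of these data known, and stood among 41582 genes in the tables. The study measured polyadenylated RNA in triplicate libraries of 7 Ewing sarcoma lines (TC71, SKES1, EW24, EW3, MHHES1, A673 and RDES) and 6 osteosarcoma lines (KHOS, HOS-MNNG, U2OS, SAOS2, G292 and MG63). Its title places it around EWS::FLI1, the fusion transcription factor of Ewing sarcoma, and KCNN1, the gene of a calcium-activated potassium channel. A further 6 libraries came from A673 cells with sh908, a short hairpin RNA against KCNN1 that doxycycline switches on, 3 without and 3 with the drug. All 6 therefore carry the hairpin, in 1 line and with 1 hairpin sequence. Nothing in the labels says that the 3 libraries of a group came from separate cultures, so the p-values of the sh908 comparisons may measure technical spread only.

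Neuropeptides are cut from larger precursor proteins, stored in dense-core granules and released to act on G protein-coupled receptors, on the same cell or on others. GRP is the mammalian relative of bombesin, and its receptor GRPR signals through Gq and calcium, as do CCKBR, the receptor shared by cholecystokinin and gastrin, and GALR2, a galanin receptor. NPY1R and NPY5R are receptors of neuropeptide Y that couple to Gi. EWS::FLI1 is known to bind repeats of the motif GGAA, and NPY and its receptors have been studied in Ewing sarcoma.

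The deposited estimated counts summed to between 23132161 and 51413254 per library in the Ewing sarcoma lines, between 15974173 and 44911542 in the osteosarcoma lines, and between 16619617 and 24818664 in the sh908 libraries. By edgeR's quasi-likelihood test at a Benjamini-Hochberg false discovery rate (FDR) under 0.05, which called 5.94% of all genes higher and 8.4% lower in Ewing sarcoma, 3 of 6 Ewing sarcoma marker genes were higher (NR0B1, NKX2-2 and STEAP1) and 3 of 7 osteoblast markers were lower (RUNX2, COL1A1 and SPP1). SP7, a defining osteoblast factor, had a median of 0.0124 TPM (transcript abundance scaled for length and library size) in the osteosarcoma lines and reached 22.1 TPM only in SAOS2. The medians of ALPL (36.1 against 4.37 TPM) and BGLAP (0.916 against 0.430 TPM) were higher in Ewing sarcoma, and that of COL1A2 was lower (1.12 against 61.7 TPM). FLI1, ERG and CD99 were not called by edgeR (FDR 0.453, 0.773 and 0.309). DESeq2 called 3 Ewing sarcoma markers higher and 1 lower, where it called 24.5% of all genes. NR0B1 was 0.651 TPM in MHHES1 and 0.316 TPM in RDES, below U2OS at 2.45 TPM. EW3 held ERG at 34.8 TPM and FLI1 at 2.08 TPM, where the other Ewing sarcoma lines held FLI1 between 28.7 and 44.6 TPM. ERG was at or below 0.0176 TPM in those lines. FLI1 also reached 20.2 TPM in HOS-MNNG and 27.7 TPM in KHOS. Which fusion each line carries was not tested. The summed level of 6 neuron markers lay between 126.8 and 466.9 TPM in the Ewing sarcoma lines and between 74.6 and 671.3 TPM in the osteosarcoma lines, and 1 of the 6, SYT1, was called higher in Ewing sarcoma. These are bulk samples, in which fewer cells of a kind and less RNA per cell cannot be told apart.

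The promoter windows of the 2 ligands with the highest levels are shown because GRP was high in 7 and CCK in 5 of the 7 Ewing sarcoma lines, and both were at or near 0 in the osteosarcoma lines. Each is the 250 bases before a transcription start in RefSeq (GRCh38.p14), 5′ to 3′ on the gene's strand, with every GGAA, or its reverse complement TTCC, in capitals. The GRP window is chr18:59219908-59220157 on the plus strand, and the CCK window is chr3:42263948-42264197 on the minus strand. Neither touches an exon of the GENCODE annotation.
GRP: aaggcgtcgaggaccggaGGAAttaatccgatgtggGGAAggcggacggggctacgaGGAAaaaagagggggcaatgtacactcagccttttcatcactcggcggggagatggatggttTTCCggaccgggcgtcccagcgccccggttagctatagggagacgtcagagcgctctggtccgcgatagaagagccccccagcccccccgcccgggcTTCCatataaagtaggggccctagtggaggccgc
CCK: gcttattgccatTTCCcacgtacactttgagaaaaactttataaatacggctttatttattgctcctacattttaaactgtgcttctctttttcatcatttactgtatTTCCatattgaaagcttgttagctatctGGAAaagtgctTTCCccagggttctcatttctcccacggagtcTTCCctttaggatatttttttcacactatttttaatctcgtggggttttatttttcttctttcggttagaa
Both windows held 5 GGAA matches, counted over both strands, and neither held the doubled motif GGAAGGAA. CCK has a further start upstream, whose window (chr3:42266186-42266435, minus strand) held 1 match. Over 35116 such windows of all genes, 92.7% held GGAA at least once with a median of 3 matches, and 3.06% held GGAAGGAA. Of the 9 members, 8 had a window in the table, and GAL did not. The window of NPY1R held 6 matches and lay wholly within annotated exon (250 of 250 bases). That of GALR2 held 4, that of NPY held 3, that of GRPR held 2, that of CCKBR held 1, and the 2 windows of NPY5R held 3 and 1, with 0 copies of GGAAGGAA in each. Matches of 4 letters are a description of these windows, and motifs farther away were not searched.

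GRP was high in 7 of 7 Ewing sarcoma lines. The mean of 3 libraries was 1025 TPM ± 193 (SD, n = 3) in TC71, 435 ± 19.7 in EW24, 340 ± 32.6 in MHHES1 and 292.5 ± 33.2 in SKES1. It was 155 TPM ± 26.4 in A673, 106 ± 13.7 in EW3 and 95.8 ± 1.30 in RDES, a 10.7-fold span from the lowest line to the highest. The libraries of TC71 held 842, 1005 and 1227 TPM and stood above every other library of the series, while MHHES1 overlapped SKES1, and EW3 overlapped RDES. In osteosarcoma the gene had 0 counts in G292, HOS-MNNG, KHOS and SAOS2, 1 count in MG63 and 13 counts in U2OS (0.367, 0.215 and 0.672 TPM). For G292, 0 of 115888840 counts allows a level of up to 0.0259 CPM (counts scaled to library size), a limit of 3 counts that covers counting error only.

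GRPR was highest in osteosarcoma, at low levels. Its 3 libraries in the osteosarcoma line G292 held 2.64, 3.41 and 2.79 TPM (134, 177 and 90 counts), the only line with a mean of 1 TPM or more. U2OS followed at 0.613 TPM ± 0.157 (SD, n = 3) and HOS-MNNG at 0.489 ± 0.173, and these overlapped each other. The 7 Ewing sarcoma lines lay between 0.00970 and 0.114 TPM, with 48 counts in all 21 libraries together. MG63, at 0.0175 TPM, lay within that range, so the tumour types overlapped. With 1 TPM as the level used to call a gene present, GRP was present without GRPR in 7 of 7 Ewing sarcoma lines, and no line of either type held both. The other bombesin receptors, named here after their values were seen, were also under 1 TPM in Ewing sarcoma, where NMBR peaked at 0.274 TPM and BRS3 at 0.511 TPM, both in EW3.

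CCK, the cholecystokinin precursor, split the Ewing sarcoma lines into a high and a low set. The mean was 577 TPM ± 74.0 (SD, n = 3) in SKES1, 436 ± 10.1 in EW24 and 425 ± 45.2 in EW3, followed by 188 ± 4.19 in RDES and 172 ± 10.6 in MHHES1. In A673 the 3 libraries held 2.10, 2.27 and 1.57 TPM and in TC71 they held 0.942, 1.05 and 1.09 TPM. SKES1 was 561 times TC71, although TC71 was the line with the most GRP. EW24 overlapped EW3, RDES overlapped MHHES1, and TC71 overlapped U2OS, whose libraries held 0.216, 0.369 and 0.986 TPM. The remaining osteosarcoma lines had 0 CCK counts except SAOS2, with 3.

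The CCK RNA of the 5 high lines was divided between 2 RefSeq transcripts in almost fixed proportion: NM_001174138.3 made up 76.7% ± 1.67 of CCK TPM (SD, n = 5 lines) and NM_000729.6 made up 23.3% ± 1.67. The window printed above lies before the start of the first of these in GENCODE. By estimated counts NM_000729.6 took between 37% and 43.9% in those lines, against 93.2% of 68 counts in TC71 and 51.3% of 83 counts in A673. The low lines thus rest on few counts, and how such reads are divided between overlapping transcripts is an estimate. GRP was likewise spread over 7 transcripts, with NM_002091.5 at 55.7% ± 4.72 and NM_001012513.3 at 31.2% ± 2.78 of GRP TPM (SD, n = 7 lines).

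CCKBR was below 1 TPM in every line. RDES held 0.540, 0.573 and 0.638 TPM and U2OS held 0.588, 0.392 and 0.446 TPM, and these lines overlapped. No other line mean passed 0.0436 TPM, and 10 of the 15 groups had 0 counts. By TPM, CCK was therefore present without CCKBR in 7 of 7 Ewing sarcoma lines, TC71 only just (1.03 TPM), and neither was present in the 6 osteosarcoma lines. With 1 CPM as the level in place of 1 TPM, CCK was present in 5 lines, A673 (0.974 CPM) and TC71 (0.806 CPM) falling short. CCKAR, the other cholecystokinin receptor, was named here after its values were seen. It peaked at 0.991 TPM in the Ewing sarcoma lines and was high in MG63 (108 TPM) and SAOS2 (28.9 TPM), osteosarcoma lines with 0 and 3 CCK counts.

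**Figure D1:**
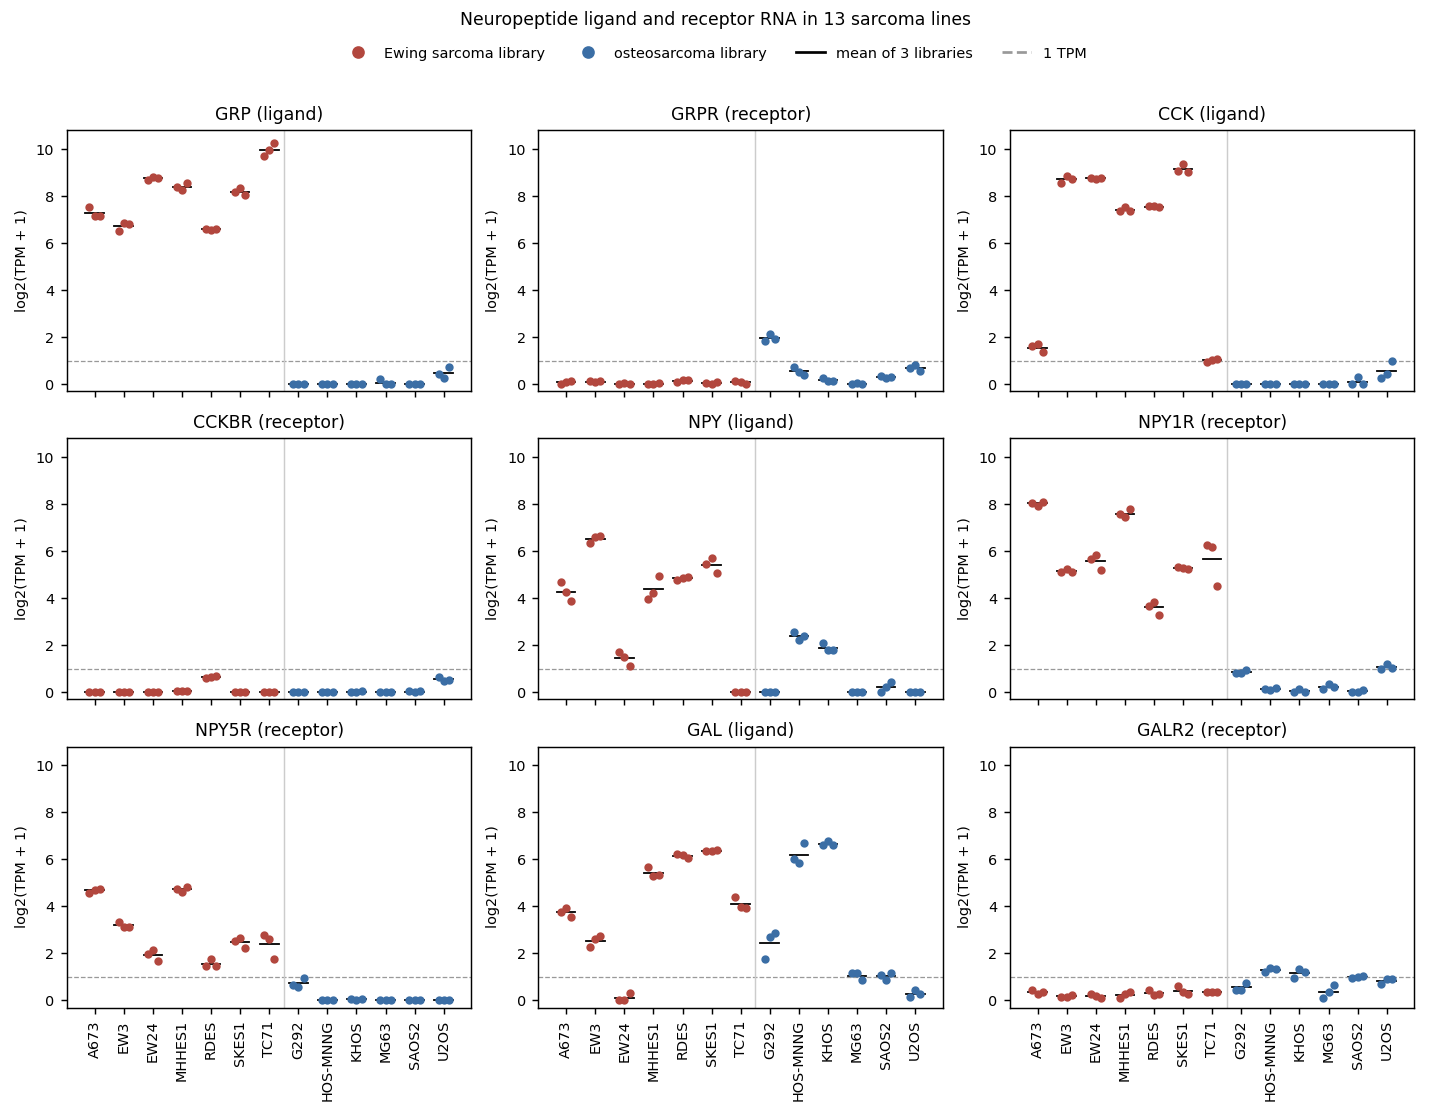
RNA level of each member in each library, as log2(TPM + 1), for the 7 Ewing sarcoma lines (left of the vertical line) and the 6 osteosarcoma lines (right); dots are libraries, black bars are means of 3 libraries and the dashed line is 1 TPM. GRP and both NPY receptors are above 1 TPM in all 7 Ewing sarcoma lines, CCK is at 1.98 TPM in A673 and 1.03 TPM in TC71, and GAL is high in lines of both types.

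Neuropeptide Y was the 1 ligand of the 4 that shared Ewing sarcoma lines with its receptors. NPY reached 91.4 TPM ± 9.94 (SD, n = 3) in EW3, 42.9 ± 9.51 in SKES1, 27.9 ± 1.36 in RDES, 20.9 ± 8.38 in MHHES1 and 19.05 ± 5.57 in A673. EW24 held 2.26, 1.87 and 1.21 TPM, and TC71 had 0 of 90379264 counts, which allows up to 0.0332 CPM. RDES, MHHES1 and A673 overlapped in turn, while EW3 stood above every other line. Among the osteosarcoma lines HOS-MNNG held 5.02, 3.66 and 4.27 TPM and KHOS held 3.34, 2.48 and 2.47 TPM, all above the 3 libraries of EW24. HOS-MNNG and KHOS are both derivatives of the line HOS. G292, MG63 and U2OS had 0 NPY counts, and SAOS2 had 3.

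NPY1R, the Y1 receptor, was the most abundant receptor of the set in every Ewing sarcoma line and made up between 79.7% (RDES) and 94.1% (EW24) of the summed TPM of the 5 receptors there. A673 held 266, 245 and 276 TPM and MHHES1 held 190, 176 and 219 TPM, the 2 highest lines, which did not overlap. TC71 followed at 56.4 TPM ± 29.7 (SD, n = 3), EW24 at 47.8 ± 10.4, SKES1 at 38.3 ± 1.19, EW3 at 35.02 ± 1.63 and RDES at 11.4 ± 2.40. The wide spread of TC71 came from its libraries at 75.5, 71.6 and 22.2 TPM. In osteosarcoma U2OS held 0.998, 1.35 and 1.03 TPM and G292 held 0.827 TPM ± 0.0795, and the other 4 lines stayed at or below 0.191 TPM.

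NPY5R, the Y5 receptor, followed the Y1 receptor at a lower level. The mean was 25.5 TPM ± 2.10 (SD, n = 3) in MHHES1 and 24.7 ± 1.64 in A673, which overlapped, then 8.18 ± 0.887 in EW3, 4.58 ± 0.842 in SKES1, 4.50 ± 1.85 in TC71, 2.84 ± 0.570 in EW24 and 1.97 ± 0.393 in RDES. On the TPM scale, which corrects for transcript length, NPY1R was between 4.28 times (EW3) and 16.8 times (EW24) the level of NPY5R. G292 held 0.567, 0.506 and 0.924 TPM of NPY5R, KHOS had 3 counts, and HOS-MNNG, MG63, SAOS2 and U2OS had 0.

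NPY1R and NPY5R lie head to head on chromosome 4, and their annotated spans share 798 bases (chr4:163343892-163344689, GRCh38.p14). In 18 of 33 libraries with at least 30 counts the estimated count of NPY1R was not whole, while in 30 of the 33 the sum of both genes was whole to within 0.01. Some reads were therefore divided between the 2 genes, which touches NPY5R more because it has fewer counts. Most of the NPY1R level, 94.6% ± 1.02 (SD, n = 7 lines), was on NM_000909.6. NPY5R was spread over 9 transcripts, with NM_006174.4 at 48.7% ± 14.5.

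NPY was present together with NPY1R, and with NPY5R, in 6 of 7 Ewing sarcoma lines. TC71 held both receptors and 0 NPY counts. In osteosarcoma HOS-MNNG and KHOS held the ligand without either receptor, and U2OS held NPY1R at 1.12 TPM with 0 NPY counts, so no osteosarcoma line held a pair. With 1 CPM as the level, NPY was present in 6 lines in place of 8, EW24 (0.375 CPM) and KHOS (0.751 CPM) falling short. EW24 then no longer held a pair. NPY1R was present in 9 lines in place of 8 at that level, G292 (1.29 CPM) being added. Within Ewing sarcoma the line with the most ligand was not the line with the most receptor: Spearman's rho over the 7 line means was -0.607 for NPY with NPY1R, 0.179 for NPY with NPY5R and 0.643 for the 2 receptors with each other. These are descriptions over 7 lines, and the last is touched by the shared reads.

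GAL, the galanin precursor, did not follow the tumour type. It was highest in the osteosarcoma line KHOS (97.5, 108 and 95.9 TPM), followed by SKES1 at 81.6 TPM ± 1.81 (SD, n = 3), HOS-MNNG at 74.3 ± 25.01 and RDES at 70.1 ± 4.69. MHHES1 (42.4 ± 6.18), TC71 (16.5 ± 3.37), A673 (12.5 ± 1.71), EW3 (4.91 ± 1.01) and G292 (4.72 ± 2.08) came next. HOS-MNNG overlapped KHOS, SKES1 and RDES, and EW3 overlapped G292. MG63 and SAOS2 stood near 1 TPM, U2OS at 0.231 TPM, and EW24 had 2 counts in its 3 libraries.

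GALR2 was low everywhere. The highest lines were HOS-MNNG (1.31, 1.57 and 1.51 TPM), KHOS (0.935, 1.51 and 1.31 TPM) and SAOS2 (0.938, 0.997 and 1.05 TPM). The Ewing sarcoma lines lay between 0.136 TPM in EW3 and 0.346 TPM in SKES1, above MG63 in part, so the types overlapped. GAL and GALR2 were present together in HOS-MNNG and KHOS only, the osteosarcoma lines with the most of either gene, and 6 Ewing sarcoma lines and 3 osteosarcoma lines held GAL without GALR2. With 1 CPM as the level, MG63 and SAOS2 no longer held GAL. GALR1, a further galanin receptor named here after its values were seen, reached 8.64 TPM in KHOS and no more than 0.198 TPM in any other line.

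GALR2 carries a limit of annotation. Its RefSeq span shares 556 bases with SRP68, a broadly expressed gene of the signal recognition particle (chr17:76071962-76072517, GRCh38.p14), and 69.3% of its counts over the 13 lines fell on the predicted transcript XM_011525427.4. On the curated transcript NM_003857.4 alone there were 47.7 estimated counts in KHOS, 26.9 in HOS-MNNG, 6.5 in U2OS, 1.5 in SAOS2, 1.4 in G292 and 0 in MG63, and between 0 and 3.4 in each Ewing sarcoma line. The order of KHOS and HOS-MNNG turned on that transcript, and these 2 and U2OS stayed above all Ewing sarcoma lines, while SAOS2, G292 and MG63 fell within the Ewing sarcoma range. In RefSeq a lncRNA gene also overlaps GRPR (MAGEB17-AS1), NPY (LOC107986777) and GAL (LOC107984343). Whether the counting used the strand is not given in the sources used here. What the overlaps add to these levels, the low ones of GRPR included, was not tested.

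**Figure D2:**
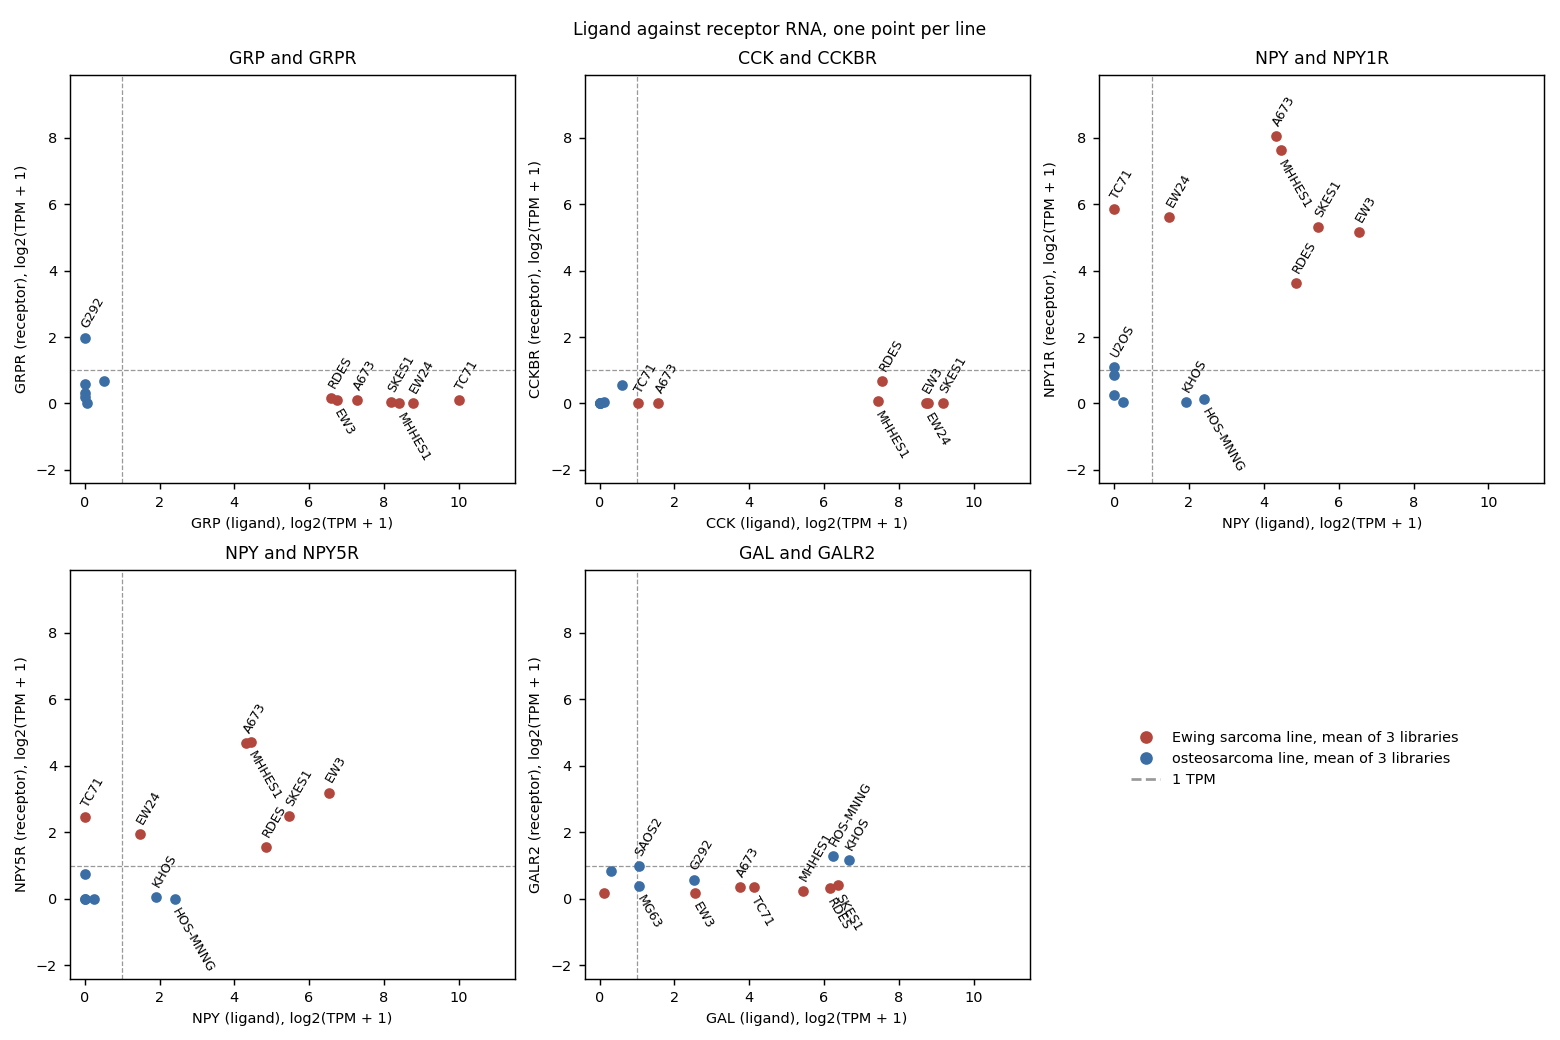
Ligand level (horizontal axis) against receptor level (vertical axis), both as log2(mean TPM + 1) of 3 libraries, for each of the 13 lines; dashed lines mark 1 TPM, and lines with neither gene at 1 TPM carry no name. Only the NPY panels have Ewing sarcoma lines in the upper right, where both genes are present (6 of 7 lines), and HOS-MNNG and KHOS are the 2 lines with both GAL and GALR2.

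The design text names the comparison of the Ewing sarcoma with the osteosarcoma lines. Of the members, 4 were higher and 2 were lower in Ewing sarcoma by the same edgeR test, with the libraries of a line summed, 7 lines against 6. Of all 21970 genes tested, 5.94% were called higher and 8.4% lower. HOS-MNNG and KHOS, both derivatives of HOS, were counted as 2 lines. With them as 1 line 4 members were again called higher, and GRPR (log2 -3.90) and GALR2 (log2 -1.85) lower. CCKBR had too few counts to be tested, and 8 of the 9 members passed the filter on low counts. The median log2 fold change of these 8 was 5.25, against -0.06 over all genes tested. The members were chosen with earlier results of these data known, so these shares and medians are no test of neuropeptide genes as a set. GRP, CCK and NPY5R had 0 counts in 4 osteosarcoma lines each and passed the filter through the Ewing sarcoma lines.

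Both high ligands led the list. GRP was higher by 12.24 on the log2 scale (SE 1.35, FDR 0.000162) and CCK by 11.45 (SE 1.80, FDR 0.00159). These values depend on the few osteosarcoma counts: GRP had 84627 counts in Ewing sarcoma against 14, and CCK 67368 against 18, and U2OS held 13 of the 14 and 15 of the 18. Scaled to library size, the ratio was 5.04e+03 for GRP (95% counting interval 3.01e+03 to 9.23e+03), and 6.01e+04 without U2OS (1.08e+04 to 2.37e+06). For CCK it was 3.12e+03 (1.98e+03 to 5.27e+03), and 1.6e+04 without U2OS (5.46e+03 to 7.74e+04). U2OS was also the osteosarcoma line with the most KCNN1 (4.36 TPM) and NR0B1 (2.45 TPM), and what these have to do with its GRP and CCK counts was not tested.

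Both NPY receptors were higher too. NPY1R differed by 7.93 (SE 1.21, FDR 0.00129), with a ratio of scaled counts of 223 (199 to 250). NPY5R differed by 6.36 (SE 1.64, FDR 0.0210), with a ratio of 70.1 (56.3 to 88.7), and of 1.46e+03 (498 to 7.06e+03) without G292, which held 76 of the 79 osteosarcoma counts. These intervals, like those of GRP and CCK, cover counting error of the osteosarcoma counts only and leave out the spread between lines. For GRP, CCK, NPY1R and NPY5R the 7 Ewing sarcoma line means all lay above the 6 osteosarcoma line means, which 3.18% of the genes tested did.

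The 2 lower members were receptors. GRPR differed by -3.76 (SE 0.92, FDR 0.0162) and by -2.41 without G292. In the exact 2-sided permutation of line means over 1716 splits its FDR was 0.0502 with a pseudocount of 1 TPM and 0.0692 with 0.1 TPM, which misses the threshold. GALR2 differed by -2.08 (SE 0.43, FDR 0.00706), at levels of 0.232 TPM ± 0.0823 (SD, n = 7 lines) against 0.883 ± 0.443 (n = 6) and with the overlap with SRP68 described above.

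The ligands NPY and GAL were not called. NPY was 29.1 TPM ± 31.2 (SD, n = 7 lines) against 1.21 ± 1.87 (n = 6), a log2 difference of 4.14 (SE 1.71, FDR 0.122). DESeq2 called it (log2 4.15, FDR 0.0246), in a fit that called 24.5% of all genes. With 1 line or replicate number left out, edgeR gave NPY from 3.61 (without EW3) to 5.11 (without HOS-MNNG) and did not call it. GAL was 32.6 TPM ± 32.6 against 30.3 ± 45.05, a log2 difference of -0.31 (SE 1.38, FDR 0.907) whose sign turned to 0.69 without KHOS and to 0.13 without HOS-MNNG. With all 39 libraries fitted, line means fixed and the replicate number as a block, GAL was called higher (1.15, FDR 0.0016), in a fit that called 70.4% of all genes. That fit measures the spread between libraries of a line and not between lines.

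**Figure D3:**
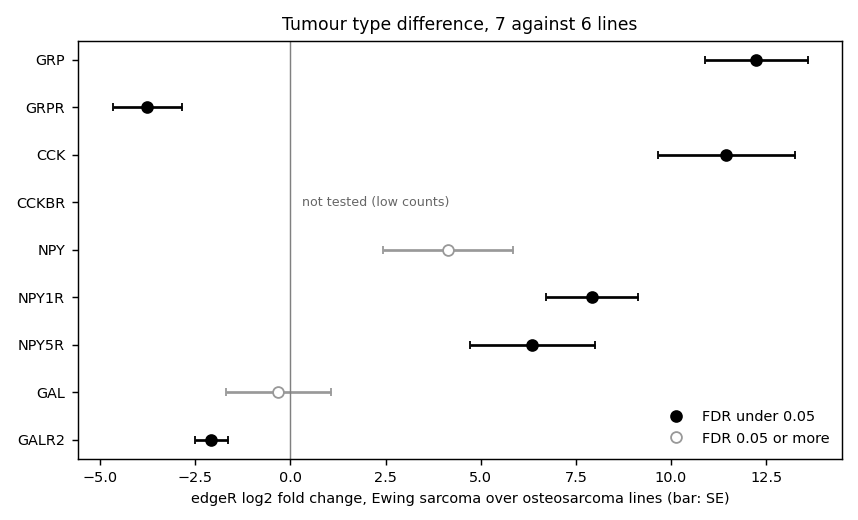
Log2 fold change of each member between the 7 Ewing sarcoma and the 6 osteosarcoma lines from edgeR (positive: higher in Ewing sarcoma), with bars of 1 SE; filled points have an FDR under 0.05. GRP and CCK lie farthest to the right (12.24 and 11.45), GRPR and GALR2 lie left of 0, and CCKBR was not tested.

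Of 14 other genes of the 4 peptide families, 4 had enough counts to be tested and 0 were called by edgeR, where 2 had an unadjusted p under 0.05 and DESeq2 called 1 lower. With 4 genes tested, nothing is read from these counts beside the shares over all genes (5.94% higher and 8.4% lower by edgeR, 24.5% in either direction by DESeq2). NMB, the sister peptide of GRP, was present in all 13 lines, at 31.4 TPM ± 3.39 (SD, n = 7 lines) in Ewing sarcoma against 12.5 ± 12.7 (n = 6), with an FDR of 0.313. CCKAR (log2 -6.28, FDR 0.0641) and GALR1 (log2 -3.62, FDR 0.0541) missed the threshold, each resting on 1 or 2 osteosarcoma lines.

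Among 12 genes that process or break down peptides, 11 were tested, and edgeR called 1 higher and 2 lower in Ewing sarcoma, where it called 5.94% and 8.4% of all genes. DESeq2 called 1 higher and 5 lower, where it called 24.5% of all genes. The higher one was PCSK2, the prohormone convertase that cuts neuropeptide precursors in granules, at 52.3 TPM ± 29.1 (SD, n = 7 lines) against 0.0831 ± 0.188 (n = 6), a log2 difference of 9.43 (FDR 0.00111). Its lowest Ewing sarcoma line was EW24 at 12.9 TPM, and U2OS again was the highest osteosarcoma line at 0.468 TPM. SCG5, whose product is the chaperone of that convertase, stayed at or below 0.296 TPM in the Ewing sarcoma lines and reached 9.14 TPM in KHOS. TPST1 and TPST2, the enzymes that sulfate tyrosines in peptides such as cholecystokinin, were lower by 1.89 (FDR 0.00487) and 1.93 (FDR 0.0262) on the log2 scale. PAM, the amidating enzyme that GRP, CCK and NPY need for their C-terminal amide, was expressed in all 13 lines, between 15.7 TPM in EW3 and 134 TPM in G292, and did not pass the test.

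Of 8 genes of dense-core granules, 6 were tested, with 2 called higher and 1 lower by edgeR, and 3 higher and 2 lower by DESeq2, where edgeR called 5.94% and 8.4% and DESeq2 24.5% (either direction) of all genes. CHGA, a granule core protein, was higher in Ewing sarcoma (log2 5.01, FDR 0.00865), as was CADPS2, which primes granules for release (log2 3.89, FDR 0.00416). SYT7, a calcium sensor of granule release, was lower (log2 -4.25, FDR 0.0356). CHGA was uneven within Ewing sarcoma, from 0.0963 TPM in MHHES1 to 6.68 TPM in A673. Of 12 G protein and phospholipase C beta genes, all tested, edgeR called 1 lower, GNAI2 (log2 -0.92, FDR 0.0127), and 0 higher, and DESeq2 called 2 lower and 0 higher. The edgeR count is near the share over all genes (8.4% lower), and the DESeq2 count lies below its share (24.5% in either direction). GNAQ and GNA11, the Gq family members through which GRPR, CCKBR and GALR2 signal, were not among those called.

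**Figure D4:**
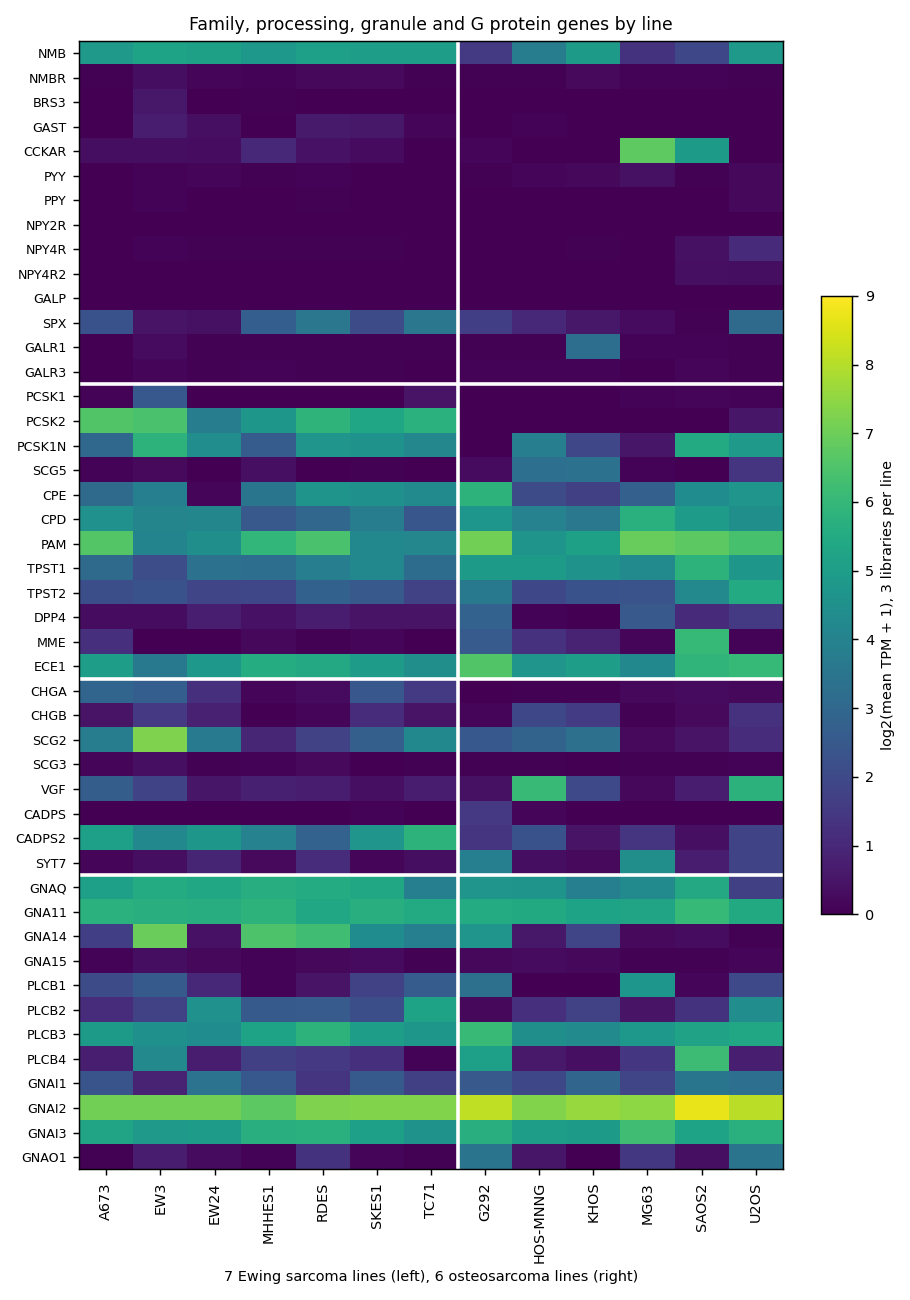
Level of 46 genes, as log2(mean TPM + 1) of 3 libraries, in the 13 lines; white lines separate, from top to bottom, the other family genes, the processing genes, the granule genes and the G protein genes, and Ewing sarcoma (left) from osteosarcoma lines (right). PCSK2 is bright in the 7 Ewing sarcoma lines and dark in the 6 osteosarcoma lines, while PAM, GNA11 and GNAI2 are seen in all 13.

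The genes whose level over the 13 line means was most like that of a member, by Pearson's r of log2(TPM + 1) among 15707 genes, were NCKAP1L (0.984), MAPT (0.983) and FEZF1 (0.980) for GRP and LOC124907918 (0.983), LOC124903048 (0.981) and TMEM178B (0.977) for CCK. For NPY they were SOX1 (0.917), SSX2B (0.900) and SSX3 (0.897), the last 2 from a family of near-identical copies between which reads can be divided. For NPY1R they were HOOK1 (0.970), LINC02233 (0.969) and NPY5R (0.961). GAL was most like NSUN4 (0.912), THOC1 (0.890) and PPRC1 (0.887), and GALR2 most like CD274, GPAT3 and F2RL1 (0.933, 0.930 and 0.930). All of these are correlations over the same 13 lines, in which the split between tumour types weighs on every gene that follows it, and they are given as descriptions.

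The sh908 libraries ask what became of the members when the hairpin against KCNN1 was induced. KCNN1 itself was 37.8, 35.3 and 17.99 TPM without doxycycline and 10.2, 13.7 and 7.75 TPM with it, so the groups did not overlap, as for 3.65% of the genes tested. Replicate 3 stood apart from replicates 1 and 2 in both groups over all genes, and samples of the same number deviated together, so the fit with the replicate number as a block is given beside the fit without it. KCNN1 was lower by 1.53 on the log2 scale without the block (SE 0.52, FDR 1.0) and by 1.46 with it (SE 0.13, FDR 0.00132).

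No member was called after doxycycline. Of the 9, 6 were tested, GRPR, CCKBR and GALR2 having too few counts, 0 were called without the block or with it, 0 had an unadjusted p under 0.05, and DESeq2 called 0. Of all 14252 genes tested, 0% were called without the block, where 94 had an unadjusted p under 0.05 and DESeq2 called 2. With the block 0.512% were called. With the block and without replicate 3 it was 1.21%, again with 0 members.

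The levels of each member overlapped between the groups. GRP was 145, 170 and 178 TPM without doxycycline and 111, 138 and 257 TPM with it, lower in replicates 1 and 2 and higher in replicate 3 (log2 -0.03, SE 0.23). Without replicate 3 and with the block it differed by -0.34 (SE 0.10, FDR 0.136). NPY1R was 210, 169 and 199 TPM against 168, 157 and 216 TPM (log2 -0.09, SE 0.22), again with replicates 1 and 2 lower and replicate 3 higher. NPY5R was 28.2, 26.1 and 17.1 TPM against 23.9, 25.2 and 20.4 TPM (log2 -0.05, SE 0.38), with the same order within pairs. For these 3 genes the difference was thus under its standard error in the fit of all 6 libraries.

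NPY and GAL varied more between replicates than between drug conditions. NPY was 13.8, 8.37 and 0.187 TPM without doxycycline and 9.98, 6.78 and 1.195 TPM with it (log2 -0.33, SE 1.35). GAL was 7.38, 7.98 and 0.376 TPM without and 8.25, 11.6 and 0.227 TPM with it (log2 0.35, SE 1.45). Replicate 3 was the lowest of both genes in both groups, at 1 and 7 NPY counts and at 3 and 2 GAL counts. Without replicate 3 and with the block NPY differed by -0.40 (SE 0.28, FDR 0.520) and GAL by 0.35 (SE 0.25, FDR 0.530).

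CCK was low, as in parental A673. It was 1.53, 0.286 and 0.377 TPM without doxycycline (19, 2 and 3 counts) and 2.12, 1.27 and 0.798 TPM with it (27, 14 and 7 counts). It was higher with the drug in 3 of 3 pairs, the ranges overlapped, and the difference was 0.80 on the log2 scale without the block (SE 1.02, FDR 1.0) and 0.94 with it (SE 0.54, FDR 0.491). With 1 library left out it ranged from 0.20 (without induced replicate 1) to 2.64 (without uninduced replicate 1). CCKBR had 0 counts in all 6 libraries, and GRPR and GALR2 had at most 5. By group means both groups held GRP without GRPR, NPY with both of its receptors and GAL without GALR2. By library this did not hold in replicate 3, where NPY was under 1 TPM without the drug and GAL was under 1 TPM in both groups. CCK crossed 1 TPM in its mean, from 0.732 TPM ± 0.695 (SD, n = 3) to 1.40 ± 0.670.

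**Figure D5:**
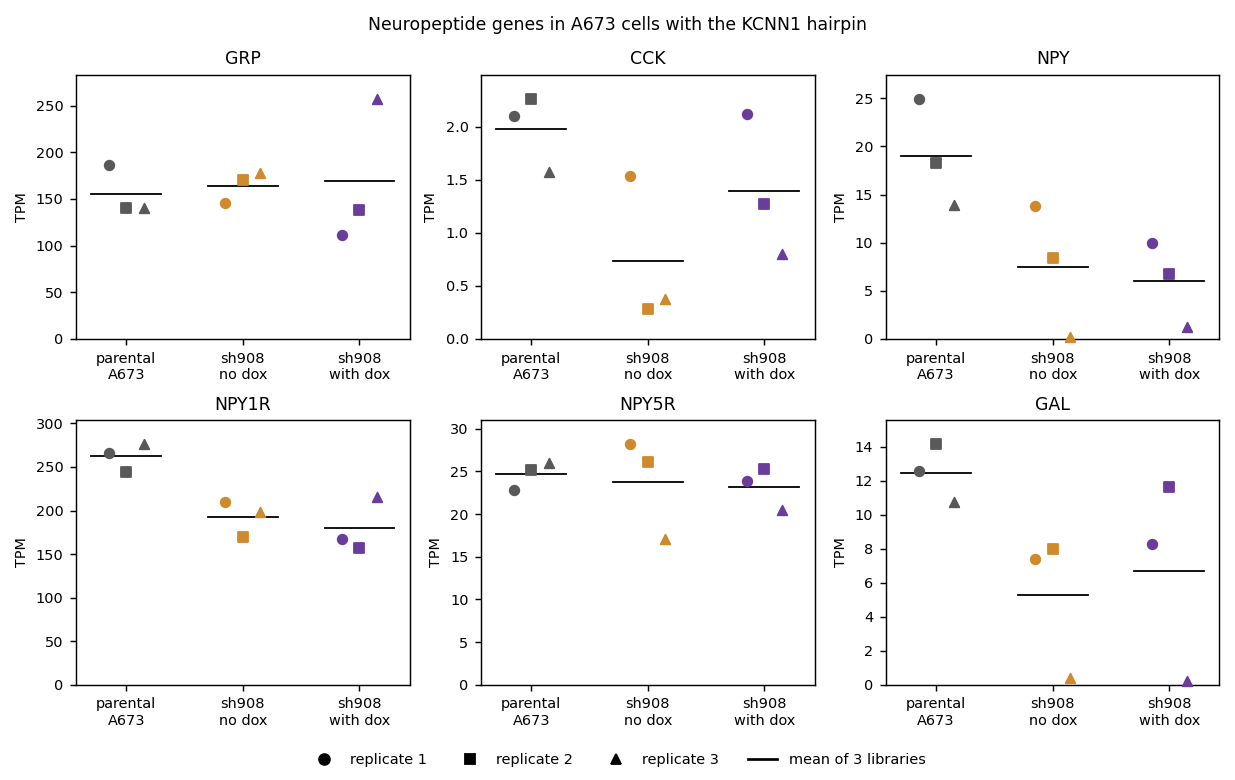
TPM of the 6 members with enough counts in parental A673 and in sh908 cells without and with doxycycline (dox); symbols mark the replicate number and black bars the means of 3 libraries. Libraries with and without the drug overlap for every gene, and replicate 3 lies near 0 for NPY and GAL in both sh908 groups.

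The uninduced sh908 cells were also set against parental A673, to show where the members stood before induction. Both groups are A673, and this comparison shares its uninduced libraries with the previous one. Of 15778 genes 15.1% were called, and 62.3% without the uninduced replicate 3, while 0 of the 6 members tested were called and 1, GRP, had an unadjusted p under 0.05. The log2 difference of GRP was 0.61 (SE 0.20, FDR 0.0793), and it went from 186, 140 and 140 TPM in the parental libraries to 145, 170 and 178 TPM, and these overlapped. It passed the threshold with DESeq2 (0.62, FDR 0.0327), which called 26.4% of all genes, in the fit of all 45 libraries (0.61, FDR 0.0228), which called 32.1%, and without the uninduced replicate 3 (0.75, FDR 0.000463). By limma on log2(TPM + 1) the difference was 0.087 (FDR 0.691).

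NPY5R differed by 0.48 (SE 0.32, FDR 0.331) and by 0.80 without the uninduced replicate 3 (FDR 2.21e-05). CCK differed by -0.82 (SE 0.84, FDR 0.531) and by -2.64 without the uninduced replicate 1 (FDR 0.0437), a fit that called 8.25% of all genes and left CCK 2 and 3 uninduced counts. Its TPM in the uninduced libraries (1.53, 0.286 and 0.377) lay below that of the parental libraries (2.10, 2.27 and 1.57) without overlap. NPY (log2 -0.60, FDR 0.724) and GAL (log2 -0.55, FDR 0.716) were lower on the TPM scale in every uninduced library, against parental NPY at 24.97, 18.3 and 13.9 TPM and parental GAL at 12.6, 14.1 and 10.7 TPM. TPM ranges that did not overlap were found in 46.6% of the genes tested. The TPM scale itself was shifted here, since the median gene lay 0.45 lower on it than in edgeR (log2, 9776 genes). On that scale NPY1R was 266, 245 and 276 TPM in parental cells and 210, 169 and 199 TPM in uninduced cells, without overlap, and differed by 0.03 in edgeR (SE 0.19, FDR 0.932) and by -0.45 in limma on log2(TPM + 1) (FDR 0.0417), which called 20.7% of all genes.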

How the data were processed

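Estimated counts (expected counts per RefSeq transcript, not scaled for depth) and TPM values (scaled for length and depth) were deposited by the authors, 1 table per library for 45 libraries. Per the submitters' processing notes the tools were fastp 0.19.5 and kallisto 0.46.2, with builds hg38 and GRCh38.p14; their options were not recorded there. Kallisto divides reads shared by transcripts, so counts need not be whole. Per the labels, libraries were made with a stranded TruSeq mRNA kit.

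Of 177816 transcripts, 169966 (95.59%) were joined by accession to RefSeq genes and summed. Counts were rounded, filtered with filterByExpr, scaled with TMM and fitted with edgeR 4.0.16 (robust quasi-likelihood, Benjamini-Hochberg over all genes tested, FDR under 0.05) under R 4.3.3. Alternatives used DESeq2 1.42.0, limma 3.58.1 on log2(TPM + 1), no filter, a replicate block, left-out lines or libraries, and exact permutation of line means. Tables were made with pandas 2.3.3 under Python 3.11.15. The edgeR fits without a block were tested on simulated data. Changes of 1 on the log2 scale were recovered in 3.12% (tumour type), 7.35% (doxycycline) and 18.5% (uninduced against parental). For changes of 2 the shares were 37.1%, 65.2% and 82.5%, so changes of these sizes could go uncalled.

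Between the sh908 groups, same-numbered samples deviated together (r = 0.683, 0.582 and 0.881), so the numbers were taken to pair them; the labels give only the numbers. Replicates 1 and 2 correlated nearly as highly across numbers (0.608 and 0.517), so the numbers mainly set replicate 3 apart. Uninduced and parental libraries (r = 0.0455, 0.0867 and 0.25) were not paired. The 9 members and the gene lists were chosen with earlier results of these data known. Named beyond the members were up to 4 called genes per list with the largest change and at least 1 TPM in a line, and the 3 most alike genes per member (at least 5 TPM in a line); other names are marked in the text or were given for their role. The genes whose pattern was most like that of NPY5R are not reported here.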

Additional observations from a re-analysis of the deposited data

Results flagged for a closer look

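Among 18 sets of line means (9 members in 2 tumour types), 6 held a line that stood far from the rest. Chance gives about 1 in 20 for normally distributed values, which these are not: GRP, CCK and NPY5R had 0 counts in 4 of the 6 osteosarcoma lines each, and CCKBR in 3 of these and in 5 of the 7 Ewing sarcoma lines, so that a few counts set a line apart. The number is therefore not read as an excess over chance. Levels are mean log2(TPM + 1). In U2OS among the 6 osteosarcoma lines these were GRP at 0.49, CCK at 0.58 and CCKBR at 0.56, all under 1 TPM. In G292 among the same lines they were GRPR at 1.98 (2.95 TPM) and NPY5R at 0.73 (0.666 TPM). The last was CCKBR in RDES among the 7 Ewing sarcoma lines, at 0.66.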

How the results depend on the processing

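The calls of GRP, CCK, NPY1R, NPY5R and GALR2 between the tumour types held under all 22 alternatives each (log2 7.90 to 15.12, 6.21 to 13.50, 5.44 to 8.48, 2.87 to 10.27 and -2.33 to -0.58), and that of GRPR under 16 of the 18 that could test it. The ends nearest 0, and the permutation values of GAL below, are differences of mean log2 TPM with a pseudocount. That measure is unlike the fold changes of the count fits. With 1 line or replicate number left out, the count fits gave 11.56 to 15.12, 11.01 to 13.50, 7.31 to 8.48, 5.92 to 10.27 and -2.33 to -1.84. GAL turned sign: 0.40 with HOS-MNNG and KHOS as 1 line, 1.15 with the replicate block and line means fixed (FDR 0.0016), 1.31 and 1.12 by exact permutation with pseudocounts of 0.1 and 1 TPM, and -0.78 to 0.69 with 1 line or replicate number left out. After doxycycline 0 members were called under any alternative, the replicate block included, and small values turned sign. With 1 library left out GRP ranged from -0.22 to 0.13, NPY from -1.03 to 0.44, NPY1R from -0.23 to 0.083, NPY5R from -0.35 to 0.16, GAL from -0.26 to 0.94 and CCK, with no change of sign, from 0.20 to 2.64. With the replicate block and without replicate 1, GRP was 0.11, NPY 0.18, NPY1R 0.023 and NPY5R 0.096, and without replicate 2 GRP was 0.14, NPY 0.089 and NPY5R 0.052; NPY was 0.065 by limma on TPM. These fits and the limma fits were chosen after seeing the data.

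Against parental A673, members called went from 0 to 1 with DESeq2, 1 with all 45 libraries and 1 with limma on TPM, fits that called 26.4%, 32.1% and 20.7% of all genes. They ranged from 0 to 2 with 1 library left out, the 2 without uninduced replicate 3, where 62.3% of all genes were called; the replicate block called 0. NPY ranged from -1.42 to 0.0032, NPY1R from -0.13 to 0.19 and GAL from -1.03 to 0.043 with 1 library left out, and limma on TPM gave NPY1R -0.45 and NPY5R -0.078. The causes were not tested beyond the shift of the TPM scale. The number of member and line combinations at 1 or more was 51 by TPM and 46 by CPM. Counts limit GRPR, CCKBR and GALR2, which had too few for a test in the sh908 cells, and CCK in A673.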

Other observations

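Beyond the 4 peptide families, other neuropeptide genes were also measured. Of 29 other ligand genes, 11 were tested between the tumour types, 5 were called higher in Ewing sarcoma and 0 were called lower by edgeR, where 5.94% and 8.4% of all genes were called. NTS peaked at 0.02245 TPM and PDYN at 0.0289 TPM in osteosarcoma, so such genes passed the filter on low counts through the Ewing sarcoma lines. The lists were also chosen with earlier results of these data known. The 5 are therefore not read as an excess over all genes. NTS (neurotensin) differed by 9.93 on the log2 scale (FDR 0.00154) and was highest in MHHES1 at 45.3 TPM. PENK (proenkephalin) differed by 6.58 (FDR 0.0423) and ranged from 0.073 TPM in MHHES1 to 594 TPM in EW3. CALCB (a calcitonin gene-related peptide) differed by 6.55 (FDR 0.00783) and NPW (neuropeptide W) by 5.33 (FDR 0.00399), with NPW highest in TC71 at 332 TPM. The fifth, PDYN, stayed under 1 TPM in all 13 lines. TC71, the line with the least CCK in Ewing sarcoma and 0 NPY counts, thus held the most GRP and the most NPW.

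Of 35 other neuropeptide receptor genes, 21 were tested, and edgeR called 2 higher and 1 lower, a share near that of all genes (5.94% and 8.4%). DESeq2 called 3 higher and 3 lower, near its 24.5% of all genes. CALCRL, the receptor of calcitonin gene-related peptides together with an accessory protein, was higher by 7.52 (FDR 0.00106), at 34.4 TPM in MHHES1 and 0.890 TPM in A673. NPFFR2, a receptor of neuropeptide FF, was lower by 5.31 on the log2 scale (FDR 0.0243) through U2OS, where it reached 28.2 TPM, and no other line passed 0.306 TPM.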
